A study of Musa acuminata AAA Group with 12 samples.

Results

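The genes described here are the 114 of 35273 gene rows that chitosan-coated banana pulp held at a higher level than uncoated pulp on day 1 and that uncoated pulp itself held at a higher level by day 7. An ID was taken when its lowest FPKM among the 3 coated libraries of day 1 was at least 2, when that lowest value plus 1 was at least 1.5 times the highest control value of day 1 plus 1, and when the mean of the day 7 control was at least 1.5 times the mean of the day 1 control. FPKM is a count of sequenced fragments scaled by gene length and library size. The members were thus chosen by their measured values in 1A, 1K and 7K, the day 1 coated, day 1 control and day 7 control libraries. The first 2 conditions were met by 416 IDs, of which 302 failed the ripening condition. The stated limit of 200 IDs was not reached.

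RNA was measured in pulp of Cavendish banana (Musa acuminata, AAA group) by paired-end RNA-seq. The groups were day 1 chitosan-coated (1A), day 1 control (1K), day 7 chitosan-coated (7A) and day 7 control (7K), each with 3 biological replicates, here called a, b and c. Coated fruit had been coated with 1.25% chitosan and control fruit carried no coating. All fingers, control fingers included, had been treated with ethylene, so no group shows ripening without that hormone.

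Banana is a climacteric fruit, in which a burst of ethylene sets off starch breakdown, sugar accumulation, softening of the cell wall, aroma and colour change. Chitosan is a polysaccharide made from chitin. On fruit it forms an edible film that limits gas exchange, and in many plants chitin fragments and chitosan are also perceived as signals of fungal attack that switch on defence genes. The deposited tables give each gene as an ID of the DH Pahang version 2 genome with no product name, so the 114 genes are described by their levels and positions and no function is assigned to any of them.

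The fragments implied by the deposited confidence intervals came to between 6136363 and 16553611 per library. The low end is 7A_c, whose low values are the least precise by this measure. Yet the study lists more total reads for 7A_c than for most other libraries, and why its implied fragments were fewest was not tested. In the sequencing summary of the study 5 libraries (1A_a, 1A_b, 1K_c, 7A_c and 7K_c) had a lower read GC percentage than the other 7, and 2 of the 3 libraries of 1A but 1 of the 3 libraries of 1K, 7A and 7K were among them. What this split stands for is not given in the sources used here. All 114 members passed the filter on low values (FPKM reaching 1 in 3 or more libraries), which the rule itself ensures, and 19746 genes were tested. In pulp, which holds several cell types, fewer cells of a type and less RNA per cell cannot be told apart.

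The comparisons of 1A with 1K and of 7K with 1K chose the members, so their values are a description. Over the members, the group mean had a median of 15.9 FPKM in 1A and 3.55 FPKM in 1K, and a median of 12.7 FPKM in 7A and 14.1 FPKM in 7K. Over all tested genes these medians were 5.40 FPKM in 1A, 5.57 FPKM in 1K, 6.86 FPKM in 7A and 7.59 FPKM in 7K. The median ratio of the means was 4.07 for 1A over 1K and 2.82 for 7K over 1K, leaving out members listed at 0 in 1K. Of the members, 107 were called higher in 1A than in 1K by limma (adjusted p under 0.05), where 3.46% of all tested genes were, and 90 were called higher in 7K than in 1K, where 31.1% were. The rule favours both of these counts, so neither is a test of the members. With median-of-ratios scaling 62 members were called higher in 7K than in 1K, where 4096 of 19746 tested genes were. Between the libraries of lower read GC the median difference of 1A from 1K on the log2(FPKM + 1) scale was 1.49, and between those of higher read GC it was 1.68. The smallest difference of any member was 0.63 between the lower GC libraries and 0.61 between the higher GC libraries.

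**Figure D1:**
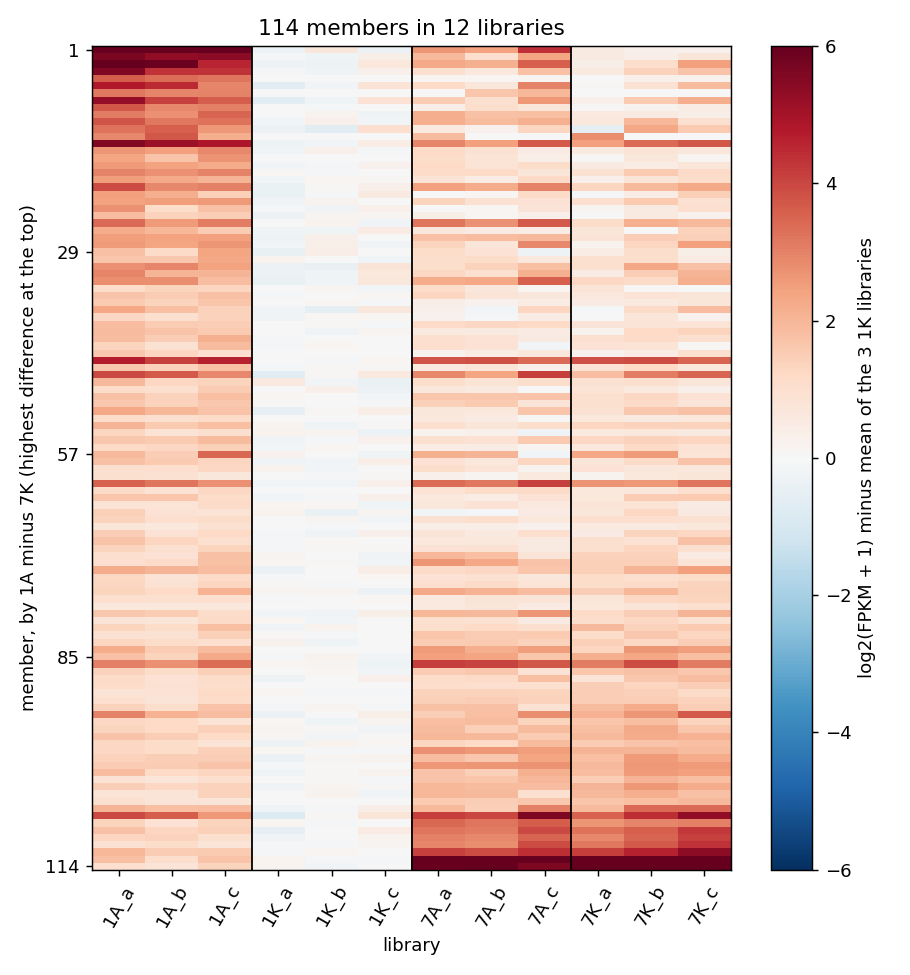
Level of each of the 114 members in each of the 12 libraries, as log2(FPKM + 1) minus the mean of the 3 libraries of 1K (colour, red above and blue below, with differences past 6 drawn as 6). Rows are ordered by the difference of 1A from 7K. Members at the top are dark in 1A and pale at day 7, and those at the bottom are dark in both 7A and 7K.

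The members did not share a single course. In 52 members every library of 1A lay above every library of 7K, in 21 members every library of 1A lay below every library of 7K, and in 41 members the groups overlapped. Across all tested genes, 18.9% lay above and 37.7% below. The rule used the values of both 1A and 7K, so these counts are not independent of it and are a description. The median of the group means in the 52 members was 16.4 FPKM in 1A, 2.12 FPKM in 1K, 7.23 FPKM in 7A and 6.68 FPKM in 7K. In the 21 members it was 16.0 FPKM in 1A, 6.26 FPKM in 1K, 40.2 FPKM in 7A and 46.3 FPKM in 7K. The mean of 1A was at least 2 times the mean of 7K in 34 members, while the mean of 7K was at least 2 times the mean of 1A in 9.

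In each of the 8 members with the largest ratio of the lowest 1A to the highest 1K library (1 added to both), all libraries of 1A lay above all libraries of the other groups. Ma04_g29690 (chromosome 4, 30545221 to 30545509) had 145, 123 and 103 FPKM in 1A, against 1.00 FPKM in 1K_b and a listing at 0 in 1K_a and 1K_c. At day 7 it had 6.84, 5.71 and 25.4 FPKM in 7A, against 0.815, 0.570 and 0.512 FPKM in 7K. The values of 7K stand for 2, 1 and 1 implied fragments, so the ripening condition was met here at the edge of detection, while all 3 libraries of 7A lay above all 3 of 7K. Ma03_g18240 (chromosome 3, 23812096 to 23815068) had 78.6, 61.2 and 66.6 FPKM in 1A, against 0.476, 0.339 and 0.983 FPKM in 1K. At day 7 it had 5.14, 2.14 and 7.15 FPKM in 7A, against 1.26, 1.05 and 1.60 FPKM in 7K, again with no overlap.

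Ma10_g28610 (chromosome 10, 35445009 to 35445637) had 163, 145 and 58.1 FPKM in 1A, against 1.03, 1.04 and 2.87 FPKM in 1K. In 7A it had 11.3, 10.2 and 29.5 FPKM, against 2.25, 4.28 and 12.9 FPKM in 7K, and replicate c, of lower read GC, was the highest of both day 7 groups. Ma09_g17330 (chromosome 9, 12913148 to 12913872) had 62.4, 25.7 and 25.6 FPKM in 1A, against 0.277, 0.123 and 0.646 FPKM in 1K. At day 7 the groups overlapped, with 1.61, 1.07 and 3.44 FPKM in 7A, against 0.966, 2.51 and 3.34 FPKM in 7K. Ma02_g09650 (chromosome 2, 19545968 to 19547909) was high in 1A alone. It had 13.6, 11.0 and 10.1 FPKM there, against 0.150, 0.201 and 0.213 FPKM in 1K, and at day 7 it had 0.340, 0.294 and 0.321 FPKM in 7A, against 0.209, 0.454 and 0.424 FPKM in 7K.

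A pair among these 8 held a substantial level at day 7 as well. Ma06_g36310 (chromosome 6, 35776493 to 35778277) had 249, 187 and 153 FPKM in 1A, against 3.37, 3.84 and 6.35 FPKM in 1K. It then had 39.6, 28.5 and 68.9 FPKM in 7A, against 28.5, 56.3 and 69.6 FPKM in 7K. Ma09_g24220 (chromosome 9, 35902483 to 35906964) came closest to a common level in 1A and at day 7, since it had 54.6, 36.0 and 50.8 FPKM in 1A, against 1.17, 0.971 and 1.28 FPKM in 1K. At day 7 it had 28.5, 28.7 and 21.8 FPKM in 7A, against 30.2, 31.1 and 23.0 FPKM in 7K, so the 2 groups overlapped there.

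Not every ID that met the rule was measured well. Ma03_g20620 (chromosome 3, 25796574 to 25796787) had 8.09, 6.68 and 6.84 FPKM in 1A and was listed at 0 in every library of 1K and 7K, so its ripening condition was met only because both means were 0. These 1A values stand for 7, 6 and 5 implied fragments. Ma08_g27170, named after its values were seen, had 6.27, 12.4 and 3.54 FPKM in 1A from 2, 4 and 1 implied fragments, and outside 1A it was above 0 in 7A_a and 7K_a alone. In the other 112 members each library of 1A held at least 10 implied fragments, and the median over all members and the 3 libraries was 240.5. The mean of 7K was under 2 FPKM in 13 members, and under 1 FPKM in 7 of these.

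**Figure D2:**
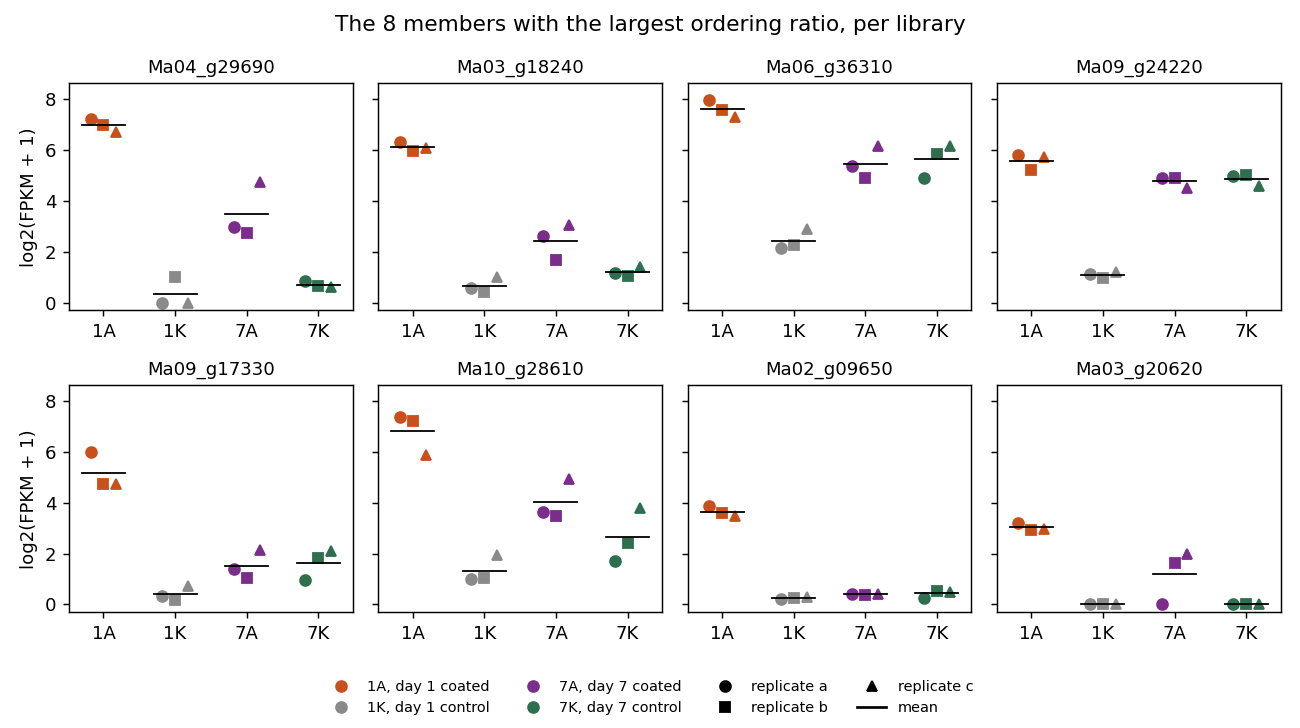
Level of the 8 members with the largest ratio of lowest 1A to highest 1K, as log2(FPKM + 1) in each library (circle, square and triangle for replicates a, b and c) with the group mean as a line. In each panel the 3 libraries of 1A lie above all other libraries.

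The libraries of 7A played no part in choosing the members, so their level is a measurement that the rule did not use. In coated fruit of day 7 the members stood above the level of day 1 control fruit. The mean of 7A was above the mean of 1K in all 114 members, where 61.9% of all tested genes show this. Every library of 7A lay above every library of 1K in 97 members (85.1%), where 29.0% of all tested genes did. In the other 17 members the groups overlapped. The choice of members for low 1K values, and for a rise from 1K to 7K, favours this direction. Day 7 control fruit stood there too, which the rule favours. By limma 90 members were called higher in 7K than in 1K, where 31.1% of all tested genes were. Whether the coating has a part in the level of 7A above 1K was not tested.

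Day 7 coated fruit was then compared with day 1 coated fruit. By limma 48 members fell (42.1%) and 19 rose (16.7%) in 7A relative to 1A (adjusted p under 0.05), where 18.2% of all tested genes fell and 29.2% rose. The remaining 47 members did not pass the test. The median log2 fold change was -0.48 over the members, against 0.34 over all tested genes. The members had been chosen for high values in 1A, which favours falls, and for a rise during ripening in control fruit, so neither count is independent of the rule. Every library of 7A lay below every library of 1A in 53 members and above in 21, where 20.6% and 30.0% of all tested genes did. Without 1A_b, 40 members fell and 11 rose, where 3130 and 4277 of 19601 tested genes did. With median-of-ratios scaling between libraries the split was 61 fallen and 11 risen members, and over all tested genes 4767 fallen and 4464 risen. That scaling moved the median of all tested genes to 0.05 and left the members 0.84 below it, against 0.82 below it without the scaling. The 48 members that fell and 11 of the 19 that rose were called in the same direction with it.

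Of the 48 members that fell, 41 had every library of 1A above every library of 7K, and the group means of all 48 had a median of 6.74 FPKM in 7A and 18.5 FPKM in 1A. On the log2(FPKM + 1) scale the largest fall was that of Ma03_g18240, with a log2 fold change of -3.69 ± 0.31 (SE) (adjusted p = 6.18e-06 from limma, at most 0.0165 under the alternatives). Ma09_g17330 fell by 3.63 ± 0.42 (SE) on the log2 scale, and Ma04_g29690 fell by 3.47 with a standard error of 0.46 (limma adjusted p = 5.52e-05 and 0.000148). Ma02_g09650 fell by 3.24 ± 0.15 (SE, adjusted p = 1.23e-07 from limma). As a ratio of the mean FPKM in 7A to that in 1A, Ma02_g09650 stood lowest of these 4 genes at 0.0275, with Ma09_g17330 at 0.0538 and Ma03_g18240 at 0.0699. Smaller falls were found for Ma06_g36310, with a log2 fold change of -2.15 ± 0.39 (SE), and for Ma09_g24220, with a log2 fold change of -0.80 ± 0.20 (SE) (limma adjusted p = 0.00112 and 0.00672).

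The 19 members that rose had a median of the group means of 52.9 FPKM in 7A and 16.0 FPKM in 1A, and in 14 of them every library of 1A lay below every library of 7K. Ma05_g19400 (chromosome 5, 27828445 to 27830297) had 584, 651 and 459.8 FPKM in 7A, against 18.5, 15.4 and 23.0 FPKM in 1A. Its log2 fold change was 4.83 ± 0.22 (SE) (adjusted p = 1.15e-07 from limma). Among the members it had the highest level at day 7, with 879.6, 1378 and 999 FPKM in 7K against 9.85, 7.53 and 8.68 FPKM in 1K. Its difference between 1A and 1K was therefore small beside its change by day 7, and its mean in 1A was 0.0174 of its mean in 7K.

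Ma06_g20050 (chromosome 6, 14099341 to 14101126) followed the same course. It had 176, 158 and 187 FPKM in 7A, against 7.34, 4.09 and 6.83 FPKM in 1A, and the log2 fold change was 4.65 ± 0.21 (SE) (adjusted p = 1.13e-07 from limma). In 7K it had 150.3, 202 and 172 FPKM, which overlapped with 7A, and in 1K it had 1.82, 1.26 and 1.23 FPKM. Ma06_g33950 (chromosome 6, 34383482 to 34385090) had 63.9, 55.5 and 80.1 FPKM in 7A, against 14.1, 9.92 and 10.2 FPKM in 1A (log2 fold change 2.44 ± 0.28, SE, adjusted p = 5.03e-05 from limma).

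Several of the most abundant members did not pass this test. Ma03_g12340 (chromosome 3, 9529918 to 9530537) had 194, 132 and 455 FPKM in 7A, against 407, 338 and 194 FPKM in 1A, a spread in which the libraries of lower read GC were the highest of each group. Ma03_g13720 (chromosome 3, 10817103 to 10822803) had 152, 149.5 and 143 FPKM in 7A, against 161, 141 and 154 FPKM in 1A, and Ma04_g31620 (chromosome 4, 31871082 to 31876604) had 151, 154 and 135 FPKM in 7A, against 125, 111 and 103 FPKM in 1A. Their log2 fold changes were -0.40, -0.04 and 0.37, with limma adjusted p-values of 0.566, 0.818 and 0.0694.

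**Figure D3:**
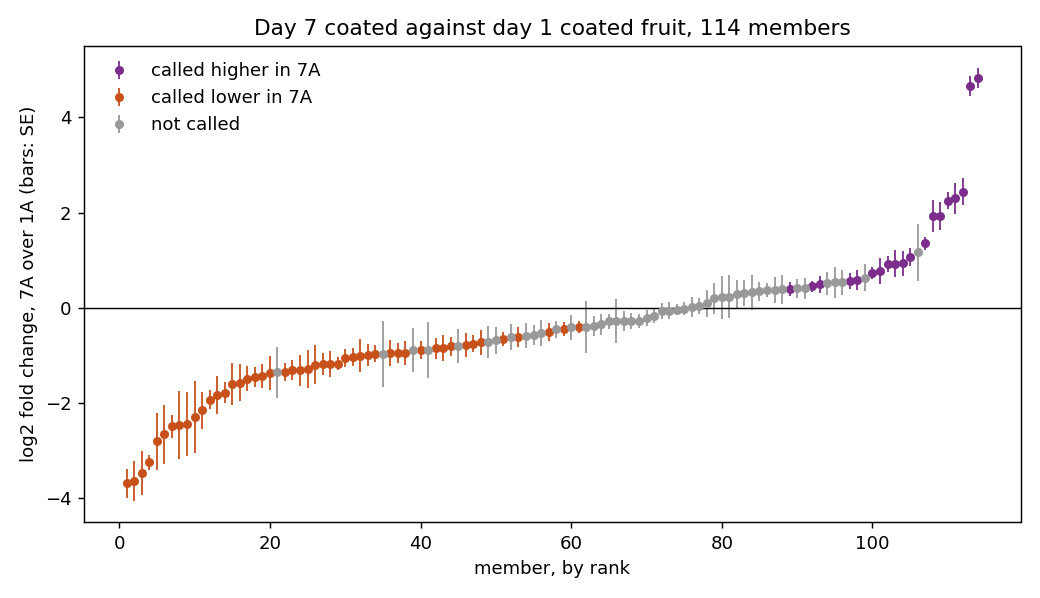
Log2 fold change of 7A over 1A for the 114 members, ranked, with the standard error from limma as bars. The 48 members called lower lie at the left, down to -3.69, and the 19 called higher at the right, up to 4.83.

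At day 7 the coated and the control fruit were compared directly. No member was called in 7A against 7K by limma (0 of 114 at an adjusted p under 0.05), where 0.081% of all tested genes were called higher and 0.0608% lower. At an unadjusted p under 0.05 there were 28 members, 18 higher and 10 lower, where 7.64% of all tested genes passed (1.52% higher and 6.11% lower). With limma's voom on the implied fragments 0 members were called and 24 had an unadjusted p under 0.05. Of the 19746 tested genes, voom called 14 higher and 4 lower, and 1223 had an unadjusted p under 0.05. In 7A and 7K the same-lettered libraries deviated together, but libraries a and b of unlike letter did so as well. With the replicate letter as a block in a fit of these 6 libraries, chosen after seeing the data, 2 members were called higher, Ma03_g01740 and Ma11_g08290, and 0 lower, where 0.213% of all tested genes were higher and 0.137% lower. The median log2 fold change was -0.11 over the members and -0.13 over all tested genes. With median-of-ratios scaling these medians were 0.02 and 0.00, so the small negative median of the members does not hold across scalings. The mean of 7A was above the mean of 7K in 49 members (43.0%), where 30.0% of all tested genes show this. The libraries of 7K had been used by the rule, which favours high values in 7K and so a lower 7A.

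The counts of groups that did not overlap showed both directions. Every library of 7A lay above every library of 7K in 12 members (10.5%), where 1.98% of all tested genes did, and below in 14 members (12.3%), where 9.83% did. In the remaining 88 members the groups overlapped. Replicate c of 7A was the highest of its group in 54 members and the lowest in 48, so for most members it lay outside the range of 7A_a and 7A_b. Replicate b was the highest in 25 and the lowest in 50, and replicate a the highest in 35 and the lowest in 16.

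When the fit carried the read GC group as a block, 15 members were called higher (13.2%) and 4 lower (3.51%) in 7A than in 7K, where 1.87% of all tested genes were higher and 7.20% lower. With median-of-ratios scaling added to the read GC block, chosen after seeing the data, the split was 19 higher and 1 lower among the members, and 678 higher and 351 lower among all tested genes. All 15 members called higher with the read GC block alone were among these 19. Of the 15, 8 had every library of 1A above every library of 7K, 5 overlapped and 2 had 1A below 7K. Without 7A_c the read GC block called 11 members higher and 2 lower, and those 11 were among the 15. Of 19662 tested genes that fit called 295 higher and 609 lower. The difference had the same sign in the lower GC libraries (7A_c and 7K_c) as in the higher GC libraries in most members, namely positive in both sets in 37 members and negative in both in 53, where 13.1% and 52.1% of all tested genes were.

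Coated fruit had the higher level in the members with the largest positive differences, of which none passed an adjusted p of 0.05 in the fit of 4 group means alone. Ma04_g29690, whose values are given above, had a log2 fold change of 2.78 ± 0.46 (SE) in 7A over 7K (adjusted p = 0.0611 from limma, 0.00347 with the read GC block, 0.00347 to 0.770 under the alternatives). Ma11_g08290 (chromosome 11, 6603709 to 6608794) had 5.29, 3.74 and 3.90 FPKM in 7A, against 1.12, 1.06 and 0.778 FPKM in 7K, with no overlap. The log2 fold change was 1.41 ± 0.23 (SE) (adjusted p = 0.0564 from limma, 0.000589 with the read GC block, 0.000549 to 0.325 under the alternatives). At day 1 it had 10.6, 8.23 and 14.9 FPKM in 1A, against 0.442, 0.640 and 0.156 FPKM in 1K. For Ma03_g18240 and Ma10_g28610 the log2 fold changes of 7A over 7K were 1.23 and 1.38, with limma adjusted p-values of 0.256 and 0.622, against 0.0106 and 0.00205 with the read GC block.

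A further pair, named after their values were seen, had larger numbers of fragments behind them. Ma03_g32130 (chromosome 3, 34082910 to 34087779) had 115, 106 and 99.7 FPKM in 7A, against 70.4, 70.1 and 64.0 FPKM in 7K, with a log2 fold change of 0.64 ± 0.14. (SE) Its adjusted p-value from limma was 0.157, and 0.00223 with the read GC block (0.000425 to 1 under the alternatives). Ma03_g01740 (chromosome 3, 1215209 to 1216107) had 42.2, 44.5 and 110.2 FPKM in 7A, against 21.2, 19.6 and 39.8 FPKM in 7K. Its log2 fold change was 1.18, with an adjusted p-value from limma of 0.542, and 0.000145 with the read GC block (0.000145 to 1 under the alternatives). In both groups replicate c was the highest, and the difference on the log2(FPKM + 1) scale was 1.45 between the lower GC libraries and 1.05 between the higher GC libraries.

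The members with the largest negative differences did not pass in that fit of 4 group means either. Ma05_g19400 had a log2 fold change of -0.93 ± 0.22 (SE) in 7A over 7K, and its groups did not overlap (adjusted p = 0.200 from limma, 0.00816 with the read GC block, 0.00816 to 1 under the alternatives). Ma02_g20930 (chromosome 2, 26719931 to 26723248) had 12.1, 13.0 and 20.0 FPKM in 7A, against 22.8, 34.3 and 20.3 FPKM in 7K, with a log2 fold change of -0.74. Ma04_g22800 (chromosome 4, 25034547 to 25037596) had 71.6, 77.7 and 102 FPKM in 7A, against 88.3, 133 and 181 FPKM in 7K, with a log2 fold change of -0.63 and groups that overlapped. Their limma adjusted p-values were 0.536 and 0.639, against 0.0732 and 0.0263 with the read GC block, so Ma04_g22800 was one of the 4 members called lower with it. Ma10_g15760 and Ma03_g13270, whose values are given below, had log2 fold changes of -0.79 and -0.76. For these the limma adjusted p-values were 0.808 and 0.816, against 0.0693 and 0.159 with the read GC block.

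**Figure D4:**
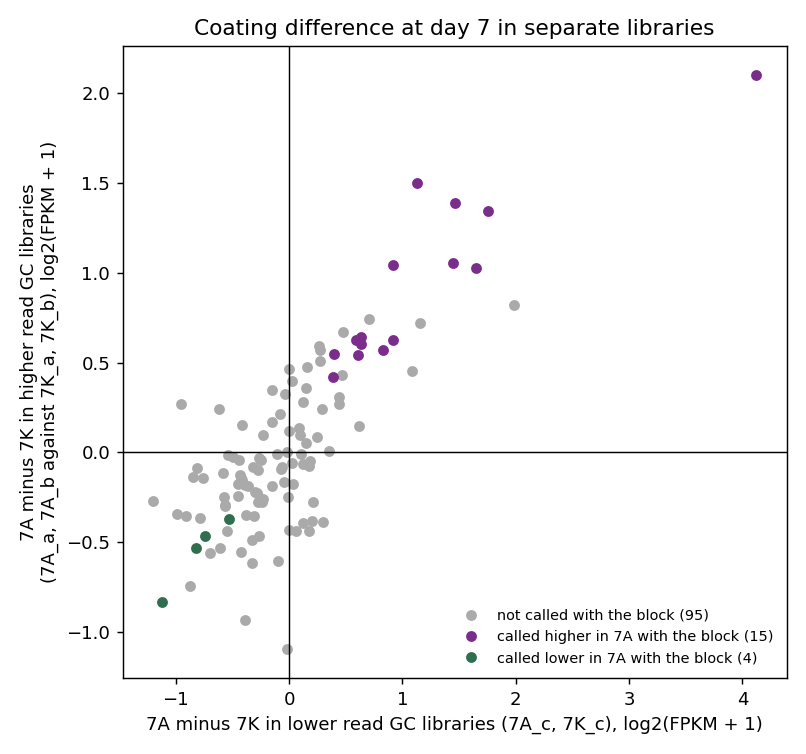
Difference of 7A from 7K on the log2(FPKM + 1) scale for the 114 members, between the lower read GC libraries on the horizontal axis (7A_c minus 7K_c) and between the higher read GC libraries on the vertical axis (mean of 7A_a and 7A_b minus mean of 7K_a and 7K_b). The difference is positive in both sets for 37 members (upper right) and negative in both for 53 (lower left), and the 15 members called higher with the read GC block all lie at the upper right.

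The read GC split moved with a part of the members in every group. In 37 members the lower GC libraries had the higher mean in all 4 groups, where 22.9% of all tested genes did, and in 24 members they had the lower mean in all 4, where 50.6% did. The median difference between lower and higher GC libraries was -0.00 in 1A, 0.05 in 1K, 0.07 in 7A and 0.07 in 7K over the members on the log2(FPKM + 1) scale. Over all tested genes it was -0.25 in 1A, -0.15 in 1K, -0.37 in 7A and -0.20 in 7K. The part of this split in the differences between 1A and 1K was not tested, since the rule itself makes these differences positive within each set.

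The members were spread over all 11 chromosomes. Chromosomes 3 and 4 held 16 each, and chromosome 1 held 3. These are 14.0%, 14.0% and 2.63% of the members, where chromosomes 3, 4 and 1 hold 9.80%, 11.3% and 7.01% of all tested genes. The members covered short spans of the genome, with a median of 1848 bp against 4285 bp over all tested genes, and 24 of them (21.1%) spanned under 1000 bp, where 9.74% of all tested genes do. FPKM of short genes rests on fewer fragments.

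In 3 places members lay next to each other in the order of the genome. Ma03_g14740 and Ma03_g14750 lie on chromosome 3 from 14527089 to 14528465 and from 14533843 to 14535254. Ma03_g14740 had 18.4, 11.7 and 12.6 FPKM in 1A, against 0.297, 0.794 and 0.280 FPKM in 1K, and 5.53, 4.38 and 5.33 FPKM in 7A, against 1.24, 4.79 and 1.84 FPKM in 7K. Its neighbour Ma03_g14750 had 52.7, 29.3 and 42.5 FPKM in 1A, against 4.20, 4.94 and 3.43 FPKM in 1K. In 7A it had 46.4, 33.4 and 65.5 FPKM, against 10.2, 21.5 and 18.7 FPKM in 7K, a log2 fold change of 1.48 ± 0.32 (SE) and no overlap (adjusted p = 0.164 from limma, 0.0127 with the read GC block, 0.0127 to 1 under the alternatives). Both neighbours stood above 7K in 1A, and in the second the change from 1A to 7A did not pass the test. The log2 fold change of that second gene was 0.21 ± 0.32 (SE) in 7A over 1A (adjusted p = 0.619 from limma).

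The second pair, Ma10_g15760 and Ma10_g15770, lies on chromosome 10 from 27736437 to 27738714 and from 27739343 to 27744279. Ma10_g15760 had 16.3, 8.31 and 6.92 FPKM in 1A, against 0.700, 1.24 and 1.79 FPKM in 1K, and 5.14, 6.60 and 14.2 FPKM in 7A, against 8.32, 13.0 and 26.9 FPKM in 7K. Ma10_g15770 had 11.4, 10.1 and 8.69 FPKM in 1A, against 0.837, 0.975 and 1.52 FPKM in 1K. It then had 3.85, 2.71 and 3.51 FPKM in 7A, against 1.99, 1.82 and 2.42 FPKM in 7K, so at day 7 the mean of 7A was below that of 7K in the first gene and above it in its neighbour.

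The remaining pair is Ma03_g13270 and Ma03_g13280 on chromosome 3, from 10287786 to 10288423 and from 10297117 to 10298345. Ma03_g13270 had 73.8, 63.3 and 63.7 FPKM in 1A, against 14.4, 15.5 and 22.5 FPKM in 1K, and 68.7, 48.4 and 146 FPKM in 7A, against 65.9, 187 and 192 FPKM in 7K. Ma03_g13280 was low throughout, with 2.70, 2.06 and 2.56 FPKM in 1A, against 0.343, 0.671 and 1.03 FPKM in 1K. Its day 7 values were 2.54, 2.67 and 4.74 FPKM in 7A, against 1.86, 4.08 and 5.01 FPKM in 7K. Neighbours of near-identical sequence can share fragments in these tables, and whether these do was not tested.

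At the threshold of the coating condition, the 3 members just inside it were Ma09_g12440, Ma04_g39630 and Ma06_g28350, with (lowest 1A + 1)/(highest 1K + 1) at 1.504, 1.504 and 1.503. The 3 IDs just outside it were Ma09_g19580, Ma10_g19570 and Ma06_g35970, with ratios of 1.499, 1.499 and 1.496. Ma09_g19580 had 8.98, 5.16 and 8.82 FPKM in 1A, against 2.42, 2.39 and 3.11 FPKM in 1K. Ma09_g12440, on the other side, had 15.4, 14.3 and 17.8 FPKM in 1A, against 9.04, 8.61 and 9.14 FPKM in 1K. At the ripening condition Ma06_g03480 lay just inside, with a mean of 7K at 1.502 times that of 1K, and Ma10_g11150 just outside, at 1.498 times.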

How the data were processed

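Reads were checked with FastQC, mapped with TopHat to version 2 of the DH Pahang genome and quantified per gene with Cufflinks by the authors, and the deposited FPKM values with their confidence bounds were the starting point. Replicates were not pooled. The treatment of fragments that map to several genes is not given in the sources used here. Each of the 12 tables has 35273 rows, of which 1 has no ID, and 1 ID occurs in more than 1 row. Implied fragments were computed as (2 × FPKM / (upper bound - FPKM)) squared, and they cover counting error only.

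Values were tested as log2(FPKM + 1) in a single fit of all 12 libraries with an intensity trend (limma 3.58.1, R 4.3.3), with Benjamini-Hochberg adjustment over 19746 genes (FPKM reaching 1 in 3 or more libraries). The pseudocount of 1 understates the fold change of low genes. The fit was tested on simulated data. Tables and figures were made in Python 3.11.15 with pandas 2.3.3 and matplotlib 3.10.9.

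The members, lists and alternatives were chosen with earlier results of these data known. Members were named by a rule on their ordering ratio, their level in 7A, their difference between 7A and 7K, their ratio of 1A to 7K, their place at the threshold and their neighbours. The few named otherwise are marked in the text. A last part of this rule, for members whose 7A libraries all lay under the highest 1K library, found 0 IDs. No ID matched the RefSeq gene table of another banana assembly (0 matches), so the planned gene lists by product name were not run and no sequence is shown. Coordinates are those of the deposited tables.

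The replicate letters carry no stated pairing. The deviations of same-lettered libraries from their group means correlated at 0.466 to 0.855 over the 3 pairs of 7A and 7K, and an added fit treated these as paired. Libraries a and b of unlike letter correlated about as well, at 0.482 for 7K_b with 7A_a and 0.668 for 7K_a with 7A_b. The correlations thus show no pairing of a with a or of b with b. Between 7A and 1A they correlated at -0.782 to -0.584 over the 3 pairs, so the letters do not pair these libraries. Replicate c is also the library of lower read GC in 1K, 7A and 7K but of higher read GC in 1A. The alternatives were another pseudocount, other filters, 2 scalings, no trend, fits of 6 libraries, a replicate block, the read GC group as a block, voom, and each library left out.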

Additional observations from a re-analysis of the deposited data

How the results depend on the processing

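The count of members called in 7A against 7K was 0 and stayed at 0 with the replicate block, a pseudocount of 0.1, no filter, no trend, the 6 libraries alone and voom. Over all tested genes the most calls among these settings came with no filter, at 25 higher and 35 lower. The member count was 1 with a filter at an FPKM of 5 and 1 with median-of-ratios scaling, 2 with quantile normalization and 19 with the read GC group as a block. Over all tested genes these settings called 21 higher and 18 lower, 12 and 3, 36 and 12, and 370 and 1422, in that order. In fits chosen after seeing the data the member count was 2 with the replicate block in the 6 libraries alone, 20 with the read GC block and median-of-ratios scaling, 18 with that block and quantile normalization (17 higher and 1 lower), and 13 with that block without 7A_c. Over all tested genes these fits called 42 higher and 27 lower, 678 and 351, 503 and 319, and 295 and 609, in that order. Leaving out a library gave 0 to 1 members, with 1 without 1A_c, without 7A_a and without 7A_c. Over all tested genes those fits called 13, 3 and 12 higher and 9, 6 and 10 lower. The replicate block left the count in 7A against 1A at 63, of which 17 rose and 46 fell, against 67 without it. With it 5643 of all tested genes rose and 3439 fell. With the replicate block in the 6 libraries alone, chosen after seeing the data, the count was 18, of which 8 rose and 10 fell, in a pair of groups whose letters do not pair. Over all tested genes 1083 rose and 1202 fell in that fit. Leaving out a library gave 47 to 68 there, and the alternatives other than that block stayed within 1.5 times of 67. The median log2 fold change of the members in 7A against 1A was -0.48, and -0.79 with median-of-ratios scaling, -0.68 with quantile normalization and -0.67 with median-of-ratios scaling and the read GC block. With the read GC block alone 60 members fell and 27 rose, where 5496 and 8749 of all tested genes did, and the median of the members was -0.45. Leaving out a library moved it between -0.53 and -0.41.

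The number of IDs that meet the rule was 114. It was 51 with a fold of 2, and 60 when the lowest 7K was set against the highest 1K. With median-of-ratios scaling 93 IDs met it, of which 77 are among the 114, and with scaling to a common sum 109 met it, of which 93 are. Without a single library it was 113 to 232, with 232 without 1K_c, 191 without 1A_c and 176 without 1A_b. In part this follows from the rule, since a lowest or highest value over fewer libraries is easier to pass. Low numbers of implied fragments limit the precision of some members. By this measure the limit is strongest in 7A_c, and why its implied fragments were fewest was not tested. The 3 libraries in each group limit the precision of every comparison.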
